A study of Homo sapiens with 32 samples.

Results

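CRISPR edits at 2 sites of the same gene, one near the start of the IGF2BP3 coding sequence and one well downstream, were compared at the level of poly(A) RNA. The exon 1 edit was represented by clone D12 (4 libraries) and the exon 11 edit by clones A3 and E4, which were made with one shared guide (8 libraries), so 12 of the 32 libraries of the series entered the comparison. Libraries were assigned by clone from the sample titles, with treatment and replicate number as terms. All cells were HCT116, a human colorectal carcinoma line, carrying a doxycycline-inducible OsTIR1 transgene, and this background was common to edited and unedited cells. Cas9 and the guide had been supplied from a plasmid by transient transfection, and GFP-positive single cells had been sorted into clones. Each of these 3 clones was sampled in duplicate after 4 h in 5 µg/mL tunicamycin, which blocks N-linked glycosylation and so stresses the endoplasmic reticulum (ER), and in duplicate in DMSO, its solvent. Unedited parental cells (8 libraries) and IGF2BP2 knockout clones B7, F6 and G6 (12 libraries) served for reference. Parental cells had the same dose and time, and for the IGF2BP2 knockout clones the labels used here state neither. The exon 1 edit rests on 1 clone, so the edited exon and the clone cannot be told apart. Nothing in the labels says that duplicates came from separate cultures, so p-values measure the spread between these libraries, which may be technical.

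IGF2BP3 belongs to a family of RNA-binding proteins that is abundant in embryonic tissue, low in most adult tissues and re-expressed in many cancers. It holds RNA recognition motifs towards its N terminus and KH domains towards its C terminus, and it binds many mRNAs and affects their stability, localization and translation. A Cas9 cut repaired with an insertion or deletion can shift the reading frame, and an mRNA with an early stop codon can be degraded by nonsense-mediated decay (NMD).

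The guides are shown because they define the comparison. Each is written 5′ to 3′ from the labels, followed by its PAM, the bases Cas9 needs beside its target, in capitals.
Exon 1 guide (D12): acgcgtagccagtcttcaccAGG
Exon 11 guide (A3 and E4): tggcaccgactgatagagctGGG
Both guides are antisense to the transcript. Their target sites in the sense direction of the mature GENCODE transcript, with the target in capitals and the flanking bases in lower case, read as follows.
Exon 1 site: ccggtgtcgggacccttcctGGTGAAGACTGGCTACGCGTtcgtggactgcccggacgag
Exon 11 site: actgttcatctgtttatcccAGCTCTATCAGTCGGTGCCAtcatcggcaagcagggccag
On GRCh38 the exon 1 target lies at chr7:23469990-23470009 and the exon 11 target at chr7:23319200-23319219, both in coding sequence of the 15-exon transcript ENST00000258729.7. The exon 1 cut falls in codon 35 of 579, with 104 coding bases (6.0%) before it. The exon 11 cut falls in codon 414, with 1241 coding bases (71.4%) before it. The glycine-rich loop that marks a KH domain was found at residues 212, 293, 422 and 504 of the translated transcript. All 4 loops lie after the exon 1 cut, whereas 2 lie before the exon 11 cut and 2 after it. The alleles that the clones carry were not analysed here.

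IGF2BP3 mRNA (ENSG00000136231_14, chromosome 7 from 23310209 to 23470467) was lowered in all 3 clones, and less so in D12, the 1 clone with the exon 1 edit. In CPM (counts scaled to library size, here after TMM normalization for library composition), D12 held 41.4 and 41.5 in DMSO and 50.5 and 47.0 in tunicamycin. A3 held 18.8 and 23.8 in DMSO and 19.5 and 30.1 in tunicamycin. E4 held 19.8 and 20.6 in DMSO and 21.3 and 25.2 in tunicamycin. Parental libraries held 69.6 to 83.6, so the order was parental, then D12, then the exon 11 clones, with no overlap between those 3 levels. D12 exceeded A3 and E4 by 1.03 on the log2 scale (SE 0.0779, edgeR adjusted p 2.79e-06, from its quasi-likelihood F test with Benjamini-Hochberg correction over all genes). A3 and E4, neighbours in this order, did not differ beyond their spread (log2 fold change -0.08, edgeR adjusted p 0.675). Against parental cells the log2 fold change was -0.73 in D12 (edgeR adjusted p 6.48e-06) and -1.75 in A3 with E4 (adjusted p 7.21e-14). These values count all IGF2BP3 transcripts, and a clone with less mRNA per cell cannot be told apart in bulk RNA from one in which fewer cells carry it. The family members did not pass the test: IGF2BP2 had a log2 fold change of 0.01 (edgeR adjusted p 0.945) and IGF2BP1, under 1 CPM, of 0.11 (adjusted p 0.911).

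**Figure D1:**
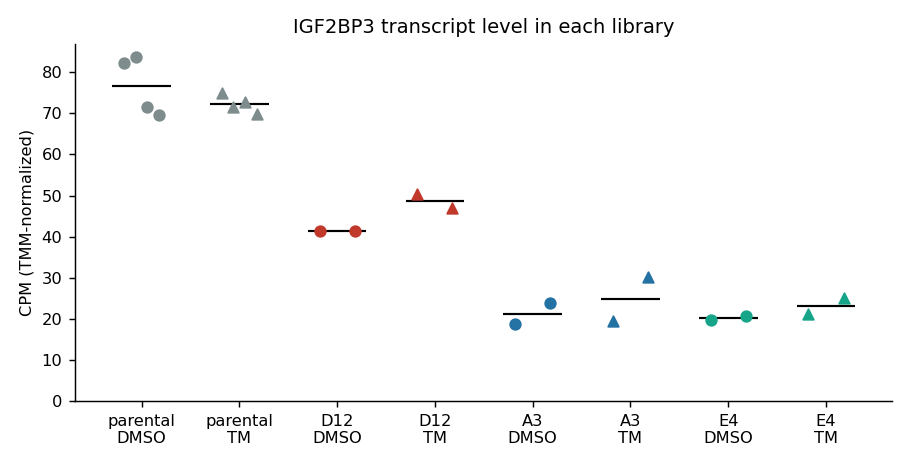
IGF2BP3 transcript level in TMM-normalized CPM (vertical axis) for every parental, D12, A3 and E4 library, in DMSO (circles) and tunicamycin (TM, triangles). Horizontal bars are group means. D12 libraries lie between 41.4 and 50.5 CPM, above every A3 and E4 library and below every parental library.

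The 12 libraries held 18265342 to 23588704 counts each. Principal component 1 (37.3% of the variance) separated the treatments and component 2 (19.3%) the replicate numbers. Component 3 (12% of the variance) set E4, at 18.4 to 25.5, apart from the other clones, with D12 (-15.1 to -11.7) directly beside A3 (-11.6 to -4.15). D12 and A3 lay at opposite ends of component 4 (7.53%), with E4 between them. Summed colon epithelium markers were 2653 to 3152 CPM in D12, 2528 to 3678 in A3 and E4 and 2753 to 3948 in parental cells, with 3 of the 8 markers under 1 CPM. All 6 immune markers and 8 of 9 fibroblast and endothelial markers were under 1 CPM in each group.

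Over both treatments, 361 of 15074 genes (2.39%) differed between the edits, 163 higher and 198 lower in D12 (adjusted p under 0.05 by edgeR). Most differences were small: the median absolute log2 fold change of the called genes was 0.40 and 47 exceeded 1. Of the 361, 343 are annotated as protein coding. In 267 of them both D12 libraries lay beyond all 4 exon 11 libraries in DMSO and again, on the same side, in tunicamycin. Over all genes tested 598 (3.97%) had such separation. The count depends on what is taken as the unit: 25 genes were called (10 higher, 15 lower) with counts summed per clone, and 193 (74 higher, 119 lower) without the replicate block, all 193 among the 361. It also fell to 145 without D12 DMSO replicate 1, 194 without D12 DMSO replicate 2, 149 without D12 TM replicate 1 and 148 without D12 TM replicate 2, and rose to 548 without A3 TM replicate 1.

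**Figure D2:**
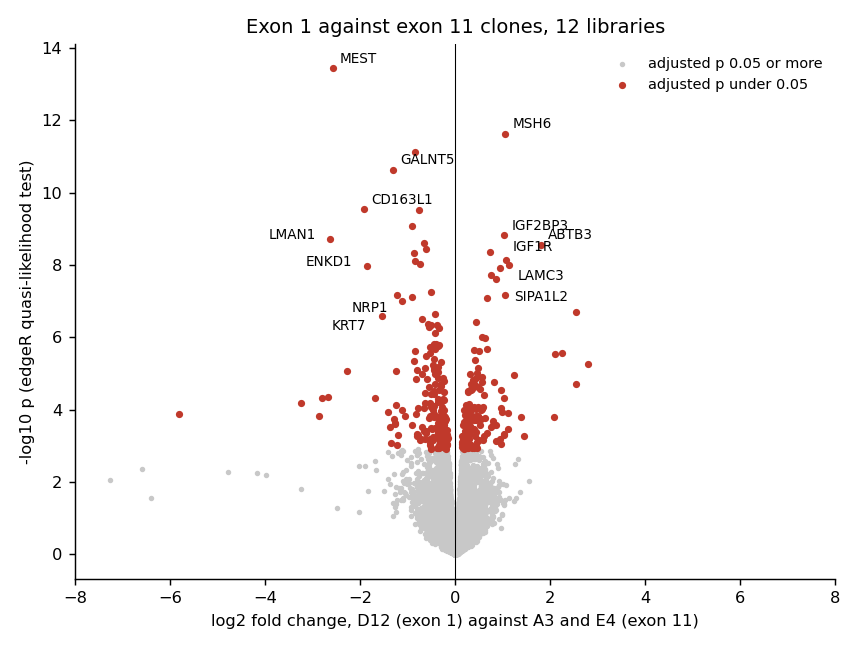
Log2 fold change of D12 against A3 and E4 (horizontal axis) and -log10 of the unadjusted p of edgeR's quasi-likelihood test (vertical axis) for the 15074 genes tested. Red points are the 361 genes with an adjusted p under 0.05, and 13 of the genes described in the text are labelled, with LMAN1 and MEST at the left and ABTB3 at the right.

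Further genes were named by size: the 12 largest increases and the 12 largest decreases among called genes with a mean count of at least 100 and no overlap in either treatment. Lack of overlap within a treatment was thus a condition for naming them and is not a result. LMAN1 and MEST had the largest decreases of these. LMAN1 encodes ERGIC-53, a lectin that carries glycoproteins such as coagulation factors from the ER towards the Golgi. LMAN1 (ENSG00000074695_6, chromosome 18 from 59327823 to 59359962) stood at 14.3 and 17.7 CPM in D12 in DMSO and at 38.7 and 57.1 CPM in tunicamycin. A3 held 179 and 167 CPM in DMSO and 191 and 239 in tunicamycin, and E4 held 151 and 137 in DMSO and 193 and 199 in tunicamycin. Each D12 library was thus far below every exon 11 library, and the parental libraries (133.9 to 220.8 CPM) overlapped the exon 11 ones. The log2 fold change was -2.63 (SE 0.202, edgeR adjusted p 3.19e-06). MCFD2, the partner of LMAN1 in cargo binding, was looked up after this result and had a log2 fold change of 0.02 (edgeR adjusted p 0.896).

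MEST, an imprinted gene expressed from the paternal allele (ENSG00000106484_16, chromosome 7 from 130486171 to 130506465), fell by 2.58 on the log2 scale (SE 0.0922, edgeR adjusted p 5.52e-10). D12 held 5.57 and 5.65 CPM in DMSO and 5.89 and 4.80 in tunicamycin. A3 held 42.0, 34.3, 34.4 and 29.9 CPM and E4 33.96, 34.4, 28.1 and 27.1 CPM, in the order of DMSO then tunicamycin. The groups were far apart, and parental cells (24.1 to 35.5 CPM) overlapped the exon 11 clones.

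GALNT5, an enzyme that starts mucin-type O-glycosylation, held 17.2 and 19.9 CPM in D12 in DMSO and 11.1 and 13.3 in tunicamycin. The exon 11 libraries held 42.6 to 46.0 CPM in DMSO and 25.5 to 37.6 in tunicamycin (log2 fold change -1.30, SE 0.0732, edgeR adjusted p 8.75e-08). The keratin gene KRT7 stood at 4.29 to 5.32 CPM in D12, 16.1 to 18.99 in A3 and 9.94 to 13.0 in E4 (log2 fold change -1.54, SE 0.173, edgeR adjusted p 1.21e-04). For KRT7 the exon 11 clones also differed from each other, with E4 below A3 by a log2 fold change of -0.58 (edgeR adjusted p 7.14e-05). CD163L1, a scavenger receptor gene, stood at 1.41 to 1.91 CPM in D12 and 5.37 to 7.30 in the exon 11 clones (log2 fold change -1.93, edgeR adjusted p 7.43e-07). ENKD1, an enkurin-domain gene, stood at 1.09 to 2.40 CPM against 5.44 to 6.86 (-1.86, adjusted p 8.39e-06). MR1, which presents microbial vitamin B metabolites to T cells, stood at 2.78 to 4.52 CPM against 6.58 to 9.76 (-1.22, adjusted p 4.10e-05).

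NRP1, a co-receptor for semaphorins and VEGF, and GIPC1, a PDZ adaptor that binds the NRP1 tail, both fell in D12. NRP1 held 3.02 and 4.85 CPM in D12 in DMSO and 4.06 and 6.09 in tunicamycin, against 7.26 to 9.18 and 9.93 to 13.6 in the exon 11 clones (log2 fold change -1.12, SE 0.116, edgeR adjusted p 5.49e-05). GIPC1 held 50.1 to 59.5 CPM in D12 and 94.2 to 130.1 in the exon 11 clones (log2 fold change -0.92, SE 0.0667, edgeR adjusted p 1.80e-06). The remaining decreases picked by size were PPP1R14C (-0.92), an inhibitor of protein phosphatase 1, the histone gene H2AC6 (-0.91) and C1orf116 (-0.88). H2AC6 is uncertain, because reads of histone genes can be shared out among nearly identical copies.

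Among the increases were a mismatch repair gene and a growth factor receptor. MSH6, part of the complex that recognizes DNA mismatches (ENSG00000116062_17, chromosome 2 from 47695530 to 47810101), held 271 and 231 CPM in D12 in DMSO and 226 and 200.5 in tunicamycin. The exon 11 libraries held 107 to 134 CPM in DMSO and 97.6 to 105 in tunicamycin. The log2 fold change was 1.05 (SE 0.05002, edgeR adjusted p 1.77e-08). IGF1R, the receptor tyrosine kinase for insulin-like growth factors, held 21.4 and 20.5 CPM in D12 in DMSO and 20.02 and 13.4 in tunicamycin. A3 held 12.3 and 8.66 CPM in DMSO and 9.18 and 8.68 in tunicamycin, and E4 held 10.5, 8.28, 8.40 and 6.54 CPM in the same order. Lack of overlap within a treatment was required for naming, and the log2 fold change was 1.06 (SE 0.0906, edgeR adjusted p 7.45e-06).

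ABTB3, which encodes an ankyrin-repeat and BTB-domain protein, had the largest increase among the named genes, at 10.5 to 15.4 CPM in D12 and 2.51 to 5.80 CPM in the exon 11 clones (log2 fold change 1.80, SE 0.143, edgeR adjusted p 3.72e-06). LAMC3, a laminin chain of basement membranes, stood at 15.3 to 17.5 CPM against 6.13 to 9.18 (1.13, adjusted p 8.39e-06). SIPA1L2, of a family of Rap GTPase-activating proteins, held 14.9 to 35.3 CPM in D12 and 9.75 to 16.03 in the exon 11 clones (1.06, adjusted p 4.10e-05). Those ranges overlap across treatments, and lack of overlap within each was required for naming. CYP24A1, the enzyme that inactivates vitamin D, held 295 to 410 CPM against 147 to 260 (0.86, adjusted p 1.63e-05). ZNF704 (0.94), the butyrophilin-like gene BTNL9 (0.86), the contactin-associated gene CNTNAP3 (0.82) and the efflux pump ABCC2 (0.79) also passed the test. For these last 4, A3 and E4 were also called against each other, with log2 fold changes of E4 against A3 of -0.99, 0.69, 0.47 and -0.71 in that order. The same held for ABTB3 (0.47, edgeR adjusted p 0.0474), CYP24A1 (-0.32, adjusted p 2.16e-04) and, among the decreases, H2AC6 (0.63, adjusted p 9.45e-04). With counts summed per clone the edgeR adjusted p values of ZNF704, BTNL9, CNTNAP3 and ABCC2 were 0.851, 0.790, 0.499 and 0.644, and that of H2AC6 was 0.581.

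The parental libraries were used to see which edit departed from unedited cells. Of 15586 genes, 1319 (8.46%) differed from parental in D12, 469 higher and 850 lower, and 2312 (14.8%) differed in A3 with E4, 991 higher and 1321 lower. The count for D12 fell to 757 without D12 DMSO replicate 1 and to 753 and 834 without D12 TM replicates 1 and 2. Both contrasts use the same parental libraries, and the second has more libraries. Genes were then classed by whether all libraries of an edit lay beyond the parental range, on the same side in both treatments. An edit that did not meet this was counted as overlapping, even where it lay beyond the range in 1 treatment. The exon 11 edit has more libraries and clones, so its class was harder to enter. Over all genes tested, 900 had D12 alone beyond the range and 156 the exon 11 clones alone. The class sizes therefore do not show which edit departed further. Of the 361 genes that differed between the edits, 139 (38.5%, against 5.97% of all genes tested) had D12 beyond the parental range in both treatments. In these the exon 11 libraries were counted as overlapping it. The reverse held for 41 (11.4%, against 1.03% of all genes tested). Both edits were beyond parental on the same side in 20 (5.54%, against 1.21%) and on opposite sides in 5 (1.39%, against 0.0332%). Both were counted as overlapping it in 156 (43.2%, against 91.7%).

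Of the 24 genes named by size, 14 belonged to the first class, which was easier to enter than the reverse. Among them were LAMC3, IGF1R, MSH6, ZNF704, CYP24A1, LMAN1, MEST, CD163L1, ENKD1, KRT7, GALNT5, MR1 and GIPC1. The exon 11 libraries of this class could still lie wholly below parental in 1 treatment, as for LAMC3 in DMSO and IGF1R and KRT7 in tunicamycin. LAMC3 and IGF1R were also called lower than parental in A3 with E4 (-0.38, edgeR adjusted p 9.67e-04, and -0.33, adjusted p 0.00975). In D12 both were higher than parental (0.75 and 0.72). MSH6 had a log2 fold change against parental of 1.06 in D12 (edgeR adjusted p 3.89e-14) and 0.01 in A3 with E4 (adjusted p 0.869). For LMAN1 these values were -2.53 (edgeR adjusted p 2.43e-10) and 0.07 (adjusted p 0.744). SIPA1L2 and C1orf116 were of the second class. SIPA1L2 had a log2 fold change of -0.17 in D12 (edgeR adjusted p 0.275) and -1.22 in A3 with E4 (adjusted p 9.01e-11). ABTB3 lay on opposite sides of parental, at 0.66 in D12 and -1.14 in A3 with E4, and so did PPP1R14C, at -0.42 and 0.50. IGF2BP3, CNTNAP3, NRP1 and H2AC6 moved the same way in both edits by different amounts, NRP1 by -1.81 and -0.70 and H2AC6 by 0.85 and 1.76. NRP1 also varied among the IGF2BP2 knockout clones, from 1.58 to 19.9 CPM, a range that holds all IGF2BP3 knockout and parental libraries.

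**Figure D3:**
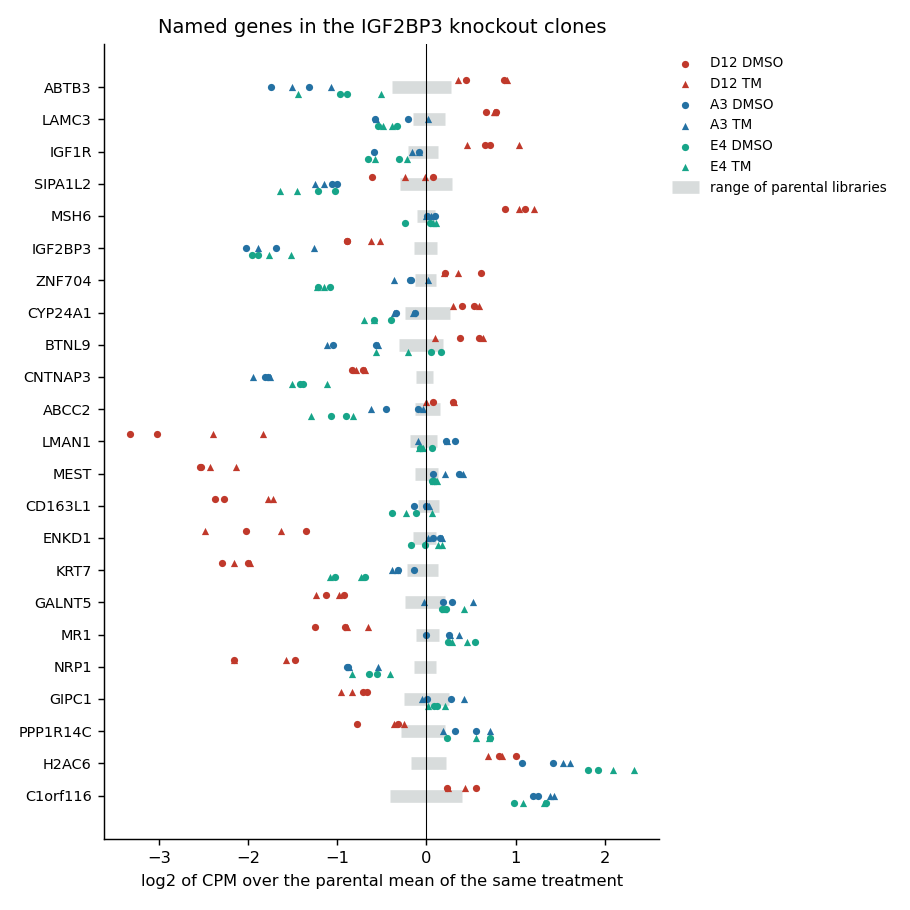
Log2 of CPM over the parental mean of the same treatment (horizontal axis) for 23 of the 24 genes chosen by size (rows), in each D12, A3 and E4 library in DMSO (circles) and tunicamycin (TM, triangles). Grey bars give the range of the 8 parental libraries. D12 lies far to the left for LMAN1, MEST, CD163L1 and ENKD1, where A3 and E4 lie near 0, and E4 lies apart from A3 for ZNF704 and ABCC2.

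Clones A3 and E4 share a guide, so their difference shows how far 2 clones of one edit were apart. E4 differed from A3 in 1351 genes (8.96%), 629 higher and 722 lower. D12 differed from A3 in 599 genes (3.97%), 264 higher and 335 lower, and from E4 in 1779 genes (11.8%), 943 higher and 836 lower. By number of genes, D12 was therefore closer to A3 than E4 was. In each of the 12 fits that left out 1 library, D12 against A3 had fewer calls than E4 against A3, and in 9 of the 12 E4 against A3 had fewer than D12 against E4. D12 against A3 fell to 393 without D12 DMSO replicate 1, 388 without either D12 TM replicate and 370 without A3 DMSO replicate 2. D12 against E4 fell to 1125 without D12 DMSO replicate 1, 1180 and 1169 without D12 TM replicates 1 and 2, and 1167 without E4 TM replicate 1. Without that last library E4 against A3 fell to 883. These 3 comparisons come from one fit with 4 libraries per clone and share libraries. The comparison of edits has no separate terms for A3 and E4, so it favours genes at which those clones were close. Of the 361 genes, the absolute log2 fold change of E4 against A3 was larger than that between the edits in 2, its median was 0.11, and 67 were called between E4 and A3. With a term per clone, 1067 genes were called between the edits, without A3 2205 and without E4 437.

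**Figure D4:**
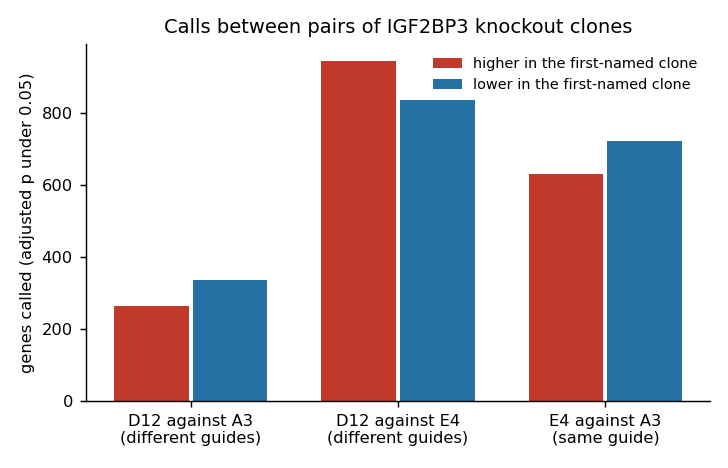
Number of genes with an adjusted p under 0.05 (vertical axis, from 0) in each pair of IGF2BP3 knockout clones, split into higher (red) and lower (blue) in the first-named clone. E4 and A3, which share a guide, differ in 629 and 722 genes, more than D12 and A3, with 264 and 335.

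Gene lists were examined by the number of called members and their median log2 fold change, which was 0.0036 over all genes tested, of which 2.39% were called between the edits. Of the 16 list members called here that were not already named by size, none kept its call with counts summed per clone (edgeR adjusted p 0.144 to 0.9996). Of 16 mRNAs known as targets of the IGF2BP family, PABPC1 (0.21, edgeR adjusted p 0.0132) and MYC (0.40, adjusted p 0.0487) were higher in D12 and none was lower, with a median of 0.05. Between E4 and A3, which share a guide, 3 of the 16 were called higher in E4 and 4 lower, with 8.96% of all genes called in either direction. MYC stood at 406 to 550 CPM in D12, 372 to 471 in A3 and 288 to 353 in E4, with D12 and A3 overlapping. The classic targets CD44 (0.30, edgeR adjusted p 0.0546), HMGA2 (-0.05) and ACTB (-0.04) did not pass. None of 15 NMD factors was called (median -0.02).

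Of 19 p53 target genes only CDKN1A, the cell cycle inhibitor p21, was called. It held 141 and 145 CPM in D12 in DMSO and 187 and 189 in tunicamycin, against 178 to 197 and 222 to 268 in the exon 11 clones, with no overlap within a treatment (log2 fold change -0.37, edgeR adjusted p 5.54e-04). The list's median was -0.11, and 16 of the 19 had a negative log2 fold change. Against parental, 4 of the 19 were called higher in D12 and 11 in A3 with E4, and none lower in either, where 8.46% and 14.8% of all genes tested were called in either direction.

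Of 18 listed laminins and integrins 3 were lower in D12 (median -0.09, with 2.39% of all genes called in either direction), among them the laminin chain LAMB3 (-0.43, edgeR adjusted p 2.87e-04) and the integrin ITGB5 (-0.32, adjusted p 0.0356). LAMB3 was without overlap within either treatment. None of the 18 was called higher, but LAMC3, a laminin chain that was not on the list, was (1.13, as above). LAMA3, another laminin chain, had a log2 fold change of -0.39 (edgeR adjusted p 0.115). Of 23 semaphorins and their receptors, SEMA3A (-1.37, edgeR adjusted p 0.0200), NRP1, SEMA6B (-0.30) and PLXNB1 (-0.28) were lower and none higher (4 of 23 against 2.39% of all genes, median -0.03). SEMA3A, a secreted ligand of NRP1, was at 0.722 to 0.898 CPM in D12, 1.27 to 1.92 in A3 and 2.51 to 3.11 in E4, all far below parental cells at 33.3 to 56.6 CPM. Its log2 fold change against parental was -5.74 in D12 and -4.36 in A3 with E4.

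Of 11 replication-dependent histone genes detected in this poly(A) RNA, H2AC6, H2BC5 (-0.79) and H2BC12 (-0.82) were lower in D12, with a list median of -0.52. The same list had a median of 0.46 in E4 against A3, with 3 called higher in E4. Copies of these genes are nearly identical, and the values are uncertain for that reason. Of 12 interferon-stimulated genes IFIT1 was lower (-1.11, edgeR adjusted p 0.0104), at 0.343 to 1.18 CPM in D12 and 0.984 to 2.27 in the exon 11 clones, and of 13 Wnt targets the receptor EPHB2 was higher (0.28, adjusted p 0.0484). No member was called in the lists of ATF6 targets, XBP1 targets, HLA class I presentation, cholesterol synthesis, epithelial keratins and junctions, mesenchymal genes, replication and mitosis, cancer-testis antigens, growth factors and EGFR ligands, or mitochondrial transcripts. KRT7, a keratin gene lower in D12 as above, was not on the epithelial list. In the pair with a shared guide, 10 of the 15 epithelial genes were lower in E4 than in A3 and none was higher, with 8.96% of all genes called in either direction. Against A3, 2 of the 15 were lower in D12 and 0 higher (3.97% of all genes called). Against E4, 7 were higher in D12 and 0 lower (11.8% of all genes called).

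Within a treatment the comparison has 2 libraries of D12 against 4. In DMSO 52 of 14854 genes (0.35%) were called, 22 higher and 30 lower, and in tunicamycin 42 of 14917 (0.282%), 15 higher and 27 lower. All 52 and 41 of the 42 were among the 361, and 29 were called in both treatments. LMAN1, MEST, MSH6, GALNT5, GIPC1, CD163L1, ABTB3 and IGF2BP3 were among the genes called in each treatment. The counts fell to 2 without D12 DMSO replicate 1 and 6 without D12 DMSO replicate 2 in DMSO, and to 6 without D12 TM replicate 1 and 8 without D12 TM replicate 2 in tunicamycin.

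Tunicamycin altered 3079 of 15517 genes (19.8%) in D12, 1472 higher and 1607 lower, and 4653 (30.0%) in A3 with E4, 2252 higher and 2401 lower. The second group has more libraries, and the count for D12 fell to 1661 without D12 DMSO replicate 2 and to 1883 and 1591 without D12 TM replicates 1 and 2. The unfolded protein response was induced in both edits. All 12 targets of the ER stress sensor ATF6 rose, with a median log2 change of 1.86 in D12 and 1.78 in A3 with E4. HERPUD1, of ER-associated degradation, rose from 30.8 and 32.9 CPM in DMSO to 1003 and 1092 CPM in tunicamycin in D12, and its log2 change was 5.06 in D12 and 5.13 in A3 with E4. The chaperone gene HSPA5 rose by 3.13 and 3.08 on the log2 scale. Of 19 targets of XBP1, the transcription factor spliced by IRE1, 17 rose in each edit and 1 fell in A3 with E4, with medians of 0.58 in D12 and 0.60 in A3 with E4. All 17 targets of ATF4 and CHOP, which act downstream of PERK, rose, with medians of 2.11 and 2.37.

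The difference between the 2 responses was tested as an interaction of edit and treatment, in a fit with a term per clone. Of 15517 genes 1 was called (0.00644%), and 1 was called by DESeq2. An unadjusted edgeR p under 0.05 was found for 338 genes, a smaller share than the 0.05 expected if no gene differed. None of the 12 ATF6, 19 XBP1 and 17 ATF4 and CHOP targets was called. The ATF4 and CHOP list had a median interaction of -0.12 on the log2 scale, with 14 of 17 negative, and the median over all genes tested was -0.0083. Across both treatments 3 of the 17 genes of that list were higher in D12 and none was lower, with 2.39% of all genes tested called in either direction. They were the serine and one-carbon enzymes PHGDH (0.33, edgeR adjusted p 0.00407), PSAT1 (0.27, adjusted p 0.0239) and MTHFD2 (0.17, adjusted p 0.0188). Within a treatment, 1 of the 17 was called in DMSO and 0 in tunicamycin. PHGDH held 115 and 93.7 CPM in D12 in DMSO against 67.9 to 90.5 in the exon 11 clones, and 186 and 163 in tunicamycin against 139 to 174, where the groups overlapped.

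The called gene was LMAN1. It rose with tunicamycin by 1.60 on the log2 scale in D12 (edgeR adjusted p 7.08e-07) and by 0.37 in A3 with E4 (adjusted p 0.00309), a difference of 1.23 (adjusted p 0.0309). The log2 scale compares ratios, and D12 started from a lower level. From DMSO to tunicamycin D12 went from 14.3 and 17.7 to 38.7 and 57.1 CPM. A3 went from 179 and 167 to 191 and 239 CPM, and E4 from 151 and 137 to 193 and 199. In D12 the tunicamycin libraries stayed below every DMSO library of the exon 11 clones. The interaction was lost without the replicate block, with a mean CPM minimum of 1, without A3 and without E4, each of which left 0 genes. It was also lost without any one of A3 DMSO replicates 1 and 2, A3 TM replicate 2, D12 DMSO replicates 1 and 2, D12 TM replicate 2, E4 DMSO replicate 1 and E4 TM replicate 2.

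**Figure D5:**
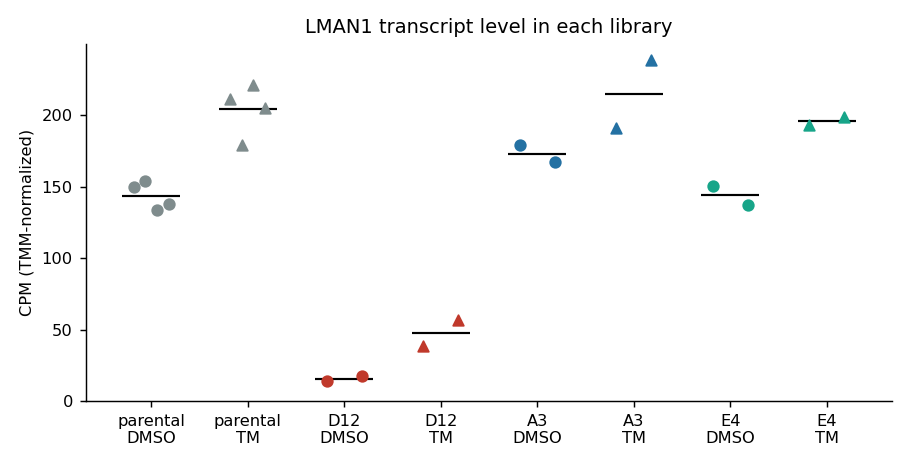
LMAN1 transcript level in TMM-normalized CPM (vertical axis) for every parental, D12, A3 and E4 library, in DMSO (circles) and tunicamycin (TM, triangles), with group means as bars. D12 lies at 14.3 to 57.1 CPM, below all other libraries shown, and its tunicamycin libraries are above its DMSO libraries.

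IGF2BP2 knockout offered a like comparison that shares no library with the comparison of IGF2BP3 edits: clone G6 against clones B7 and F6, which share another guide. The G6 guide is shown because it matches the D12 guide at 16 of 20 positions, and the capitals mark the positions at which they differ.
D12 guide, IGF2BP3: aCgcgtagccAgTcttcaCc
G6 guide, IGF2BP2: aGgcgtagccGgActtcaGc
Counted from 1 at the 5′ end, the D12 base first, the differences are C2G, A11G, T13A and C19G. G6 differed from B7 and F6 in 899 of 14952 genes (6.01%), and in 408 to 484 when any 1 of the 4 G6 libraries was left out. For the DMSO libraries of G6 the title says control and the treatment label says tunicamycin, and they were taken as DMSO by title. With the tunicamycin libraries alone, and so with fewer libraries, 8 genes were called (4 higher, 4 lower), and the shared calls below come from the fit with both treatments. Of the 359 genes called between the IGF2BP3 edits that were tested in both, 66 were also called here (18.4%, which is 7.43% of the 888 G6 calls tested in both), and 6.03% of all genes tested in both were called for G6. Of the 66, 46 differed in the same direction, 28 lower and 18 higher, and 20 in the opposite one.

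LMAN1 was among the 46. It stood at 58.2 and 60.1 CPM in G6 in DMSO and 108 and 109.6 in tunicamycin, against 135.7 to 154.4 and 196.2 to 213.6 in B7 and F6, with no overlap (log2 fold change -1.09, SE 0.0749, edgeR adjusted p 8.05e-06). MALT1, a signalling gene near LMAN1 on chromosome 18, was chosen after its values were seen. It was higher in D12 (log2 fold change 0.41, edgeR adjusted p 0.00341) and in G6 (0.40, adjusted p 0.00927). HNF4A, a transcription factor of gut and liver epithelium and also chosen after its values were seen, stood at 0.413 to 0.709 CPM in D12 and 0.482 to 0.792 in G6. It stood at 4.87 to 6.24 CPM in A3, 1.69 to 2.27 in E4, 2.56 to 3.58 in B7 and F6 and 2.49 to 4.53 in parental cells, so D12 and G6 were the low clones (log2 fold changes -2.67, adjusted p 0.00575, and -2.33, adjusted p 2.38e-05, by edgeR). With counts summed per clone neither MALT1 (edgeR adjusted p 0.293) nor HNF4A (0.268) kept its call between the IGF2BP3 edits. Of the genes named by size, KRT7 (-0.72) and PPP1R14C (-0.88) were also lower in G6 than in B7 and F6. NRP1 was higher (2.38) and ZNF704 lower (-0.90) than in B7 and F6, opposite to their direction in D12. For both of these genes G6 overlapped parental cells in each treatment, and B7 and F6 did not. In DMSO NRP1 held 10.9 to 13.6 CPM in G6, 12.3 to 14.6 in parental cells and 1.58 to 3.27 in B7 and F6. ZNF704 held 17.8 to 18.5, 17.4 to 19.4 and 30.3 to 42.1 CPM in that order. IGF2BP3 itself was higher in G6 than in B7 and F6 (0.50, edgeR adjusted p 7.79e-05).

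Positions in the genome were examined last. Of 14 tested genes within 1 Mb of IGF2BP3 none was called, with log2 fold changes of -1.14 (GPNMB, edgeR adjusted p 0.0536) to 0.18. By chromosome the median log2 fold change was -0.0046 to 0.022 and the share of genes called 1.18% to 4.09%, highest on chromosome 8, with 16 higher and 5 lower of 513. Among 144 neighbours of the 24 named genes, the nearest 3 tested coding genes on each side, 7 were called, with 2.39% of all genes tested called. Transcripts with up to 4 mismatches to a guide beside a PAM were listed. The closest for the exon 1 guide were AC092447.1 (G5A) and AL023775.1 (G12A), which reached at most 0.0453 and 0.244 CPM in the IGF2BP3 knockout and parental libraries. Of the matches that were expressed above 1 CPM, IGF2BP2 (4 mismatches to the exon 1 guide) and KLHL24 (0.10, edgeR adjusted p 0.671) did not pass the test between the edits. No such site was in an LMAN1, HNF4A or MALT1 transcript for the guides of D12, of A3 and E4, or of G6. Introns and intergenic sequence were not searched.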

How the data were processed

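Gene counts of 32 poly(A)-selected libraries were used as whole-number counts, as the authors deposited them; per the labels' protocols a directional kit and paired reads were used, and per the submitters' processing notes STAR 2.7.5c and hg38. Counter, annotation and strand setting are not given in the sources used here, so overlapping and antisense genes are uncertain. Groups came from titles. Comparisons were fitted with edgeR 4.0.16 in R 4.3.3 (TMM, filterByExpr, quasi-likelihood test, Benjamini-Hochberg adjustment over all genes tested, threshold 0.05), with treatment and replicate number as terms. Fits within a treatment had no treatment term. The interaction, the tunicamycin responses and the clone pairs came from fits that also had a term per clone, unlike the comparison of edits. The SE is the one implied by the F statistic. Same-numbered libraries deviated together from their group means (all 15 pairs above a correlation of 0.1, 0.103 to 0.516). Replicate pairs differed by more than counting noise (chi-square per degree of freedom 5.24 to 25.2), so none was a duplicate. On simulated data for the comparison of edits over both treatments (14857 genes), 90 of 100 genes with a log2 change of 0.5 and 100 of 100 with a change of 1 were recovered, and 6.4% of calls were false. The simulation drew each library independently, with no difference shared by the libraries of a clone. In the data E4 and A3 differed in 1351 genes, so this false share does not carry over to the comparison of edits. For CPM, TMM factors were computed over the 32 libraries together. Named genes are list genes and the 12 largest increases and decreases among called genes with a symbol, a mean count of at least 100 and no overlap in either treatment; for the interaction, the called genes. The members and gene lists were chosen with earlier results of these data known. Positions and transcripts come from GENCODE release 29 on GRCh38. Alternatives were DESeq2 1.42.0, its size factors, other filters on low counts, no replicate block, other units and each library or clone left out; leaving out a whole replicate number was chosen after seeing the data. The values of some genes, 1 of those chosen by size among them, are not reported here, and counts include them.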

Additional observations from a re-analysis of the deposited data

Results flagged for a closer look

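The tunicamycin response of LMAN1 differed between the edits, by an interaction of 1.23 (log2; edgeR adjusted p 0.0309), and the alternatives under which this call was lost are given above. Among the 4 exon 11 libraries of one treatment, 1 library stood apart in 2 of 48 groups checked for the 24 named genes, and chance gives about 1 in 20. LMAN1 in A3 TM replicate 2 was at 238.6 CPM, with the other 3 at 191.4 to 198.9. MEST in A3 DMSO replicate 1 was at 42.0 CPM, with the other 3 at 33.96 to 34.4. Both values lie on the far side from D12.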

How the results depend on the processing

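Called genes between the edits over both treatments numbered 361, against 193 without the replicate block, 554 with DESeq2 (347 of the 361 among them), 757 without a filter on low counts, 47 above an absolute log2 fold change of 1, 1067 with a term per clone, 2205 without A3, 25 with counts summed per clone (1 against 2 values, with D12 assumed to vary like the others) and 72 summed per clone and treatment. Leaving out 1 library gave 145 to 548, and leaving out all libraries of a replicate number, chosen after seeing the data, 36 or 43. In DMSO (52) the count was 100 with DESeq2, 325 without a filter, 16 above a log2 fold change of 1, 2241 without A3, 237 without E4 and 2 to 51 with 1 library left out. In tunicamycin (42) it was 12 without the replicate block, 104 with DESeq2, 16 above a log2 fold change of 1, 1677 without A3, 253 without E4 and 6 to 43 with 1 library left out. The interaction (1) gave 0 without the replicate block, with a mean CPM minimum of 1, without A3 and without E4, 3 without a filter, and 0 to 1 with 1 library left out. Without the replicate block the tunicamycin response of D12 had 1974 genes, D12 against A3 303, D12 against E4 907, E4 against A3 714, D12 against parental 739, A3 with E4 against parental 1426 and G6 against B7 and F6 527. The tunicamycin response of the exon 11 clones had 2904 genes without A3 and 2711 without E4, and G6 against B7 and F6 had 8 in tunicamycin libraries alone. With 1 library left out, the response of D12 ran from 1591 to 3661 genes, D12 against A3 from 370 to 805, D12 against E4 from 1125 to 2506, E4 against A3 from 883 to 1952, D12 against parental from 753 to 1531 and G6 against B7 and F6 from 408 to 844. Called genes named in the text were refitted under 24 alternatives each, and 0 of all 1008 values changed sign. The alternatives use the same libraries, so keeping a call is no independent support. The 24 genes named by size were picked in these libraries for large changes without overlap, and the 18 others were not. Their contrast thus follows at least in part from that choice. Of the 24 genes named by size, 15 kept their call throughout, among them LMAN1, MEST, MSH6, IGF1R and IGF2BP3, and none of the 18 others did. SIPA1L2, KRT7, NRP1 and PPP1R14C lost it without replicate 1 (edgeR adjusted p 0.138, 0.109, 0.0860 and 0.109), the last 3 also with counts summed per clone (0.0523, 0.0594 and 0.102). The cause of these changes was not tested. Genes under about 1 CPM rest on few reads.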
